A study of Mus musculus with 577 samples.

Results

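Bulk granulosa denotes libraries made from the whole granulosa of a sectioned mouse follicle, and a 10-cell pool denotes a library made from about 10 granulosa cells cut from 1 region of a follicle. The libraries were chosen by their labels: 7 bulk samples (numbered 1 to 6 and 8) and 14 pools, of 577 samples in the series. The pools are 7 from cells beside the oocyte (neighboring) and 7 from cells away from it (non-neighboring), each numbered 1 to 7. All 21 come from ovaries of 8-week-old female mice that were snap-frozen, cut at 15 μm, stained with cresyl violet and fixed in alcohol, and no group carried an allele or a treatment. Cells were isolated by laser capture microdissection (LCM) and amplified by DRaqL-SC3-seq, a lysis and 3′-end cDNA method that needs no RNA purification. The pools were cut from early antral follicles. Bulk follicles with an oocyte in the section were early antral and had that oocyte removed first, whereas the stage of the others was not identified, and the labels do not say which library is which. Mice and follicles behind the libraries are not named, so that the tests cover the spread between these libraries, part of which may be technical.

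Granulosa cells surround the oocyte, divide while the follicle grows and respond to FSH through the receptor FSHR. They make inhibins and activins from the subunits encoded by Inha, Inhba and Inhbb, form estrogen with the aromatase encoded by Cyp19a1 and secrete anti-Müllerian hormone (Amh). Theca cells, vessels, blood and stroma lie outside the basement membrane of the follicle, and cells next to the oocyte exchange material with it through thin projections.

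The libraries held between 3811945 and 8259281 reads on protein-coding genes (3826680 to 7446680 in bulk and 3811945 to 8259281 in the pools), and levels are scaled to the total of each library (RPM, the usual unit of depth-scaled reads). A gene without reads could have had up to 3, which corresponds to between 0.363 and 0.787 RPM in these libraries. No pair of libraries held identical counts.

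ERCC spike-in RNA was part of the lysis buffer, so that its share of reads is lower where a tube held more cellular RNA. Per 100 protein-coding reads, bulk libraries 1 to 6 and 8 held 0.310, 12.4, 0.0732, 3.09, 0.0454, 0.0598 and 0.0243 ERCC reads. The pools held from 1.57 to 18.4, with a median of 5.88. The other 5 bulk libraries thus lay below every pool, while bulk 2 and bulk 4 lay among the pools. The geometric mean was 25.4-fold higher in the pools (difference in log10 ratio of -1.40 for bulk minus pools, adjusted p = 0.000894 in a two-sided exact permutation test over 4 measures). Without bulk 2 the difference was -1.69, without bulk 4 it was -1.59, and without both it was -1.96. By the paper's account the bulk samples held many more cells than the pools, but the labels give no cell number for single bulk libraries. For bulk 2 and bulk 4, fewer cells and less RNA per cell thus cannot be told apart.

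**Figure D1:**
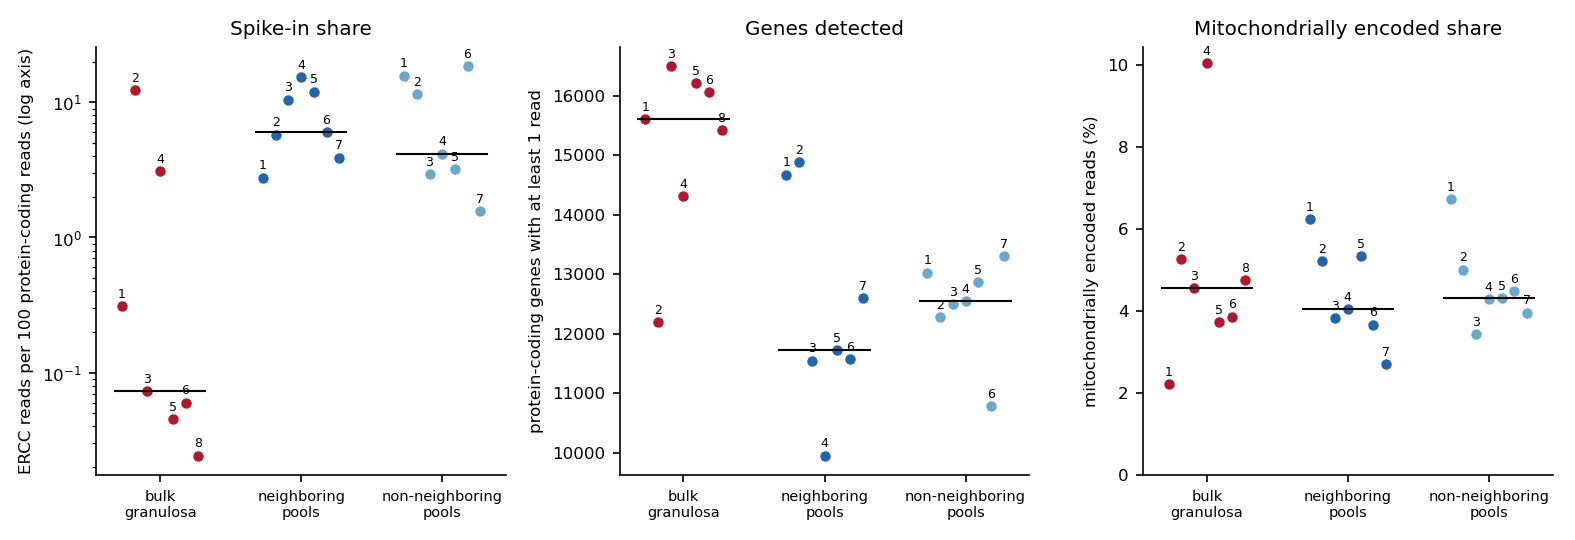
ERCC reads per 100 protein-coding reads (left, log axis), protein-coding genes with at least 1 read (middle) and percent of protein-coding reads from mitochondrially encoded genes (right) in each library. Each point is 1 library with its label number, and black lines are medians of 7. Bulk 2 and bulk 4 sit among the pools in spike-in share, and bulk 4 has the highest mitochondrially encoded share, 10.0%.

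Whole granulosa yielded more detectable genes. The bulk libraries held 15610, 12190, 16492, 14313, 16216, 16063 and 15418 protein-coding genes with at least 1 read, in the order of their numbers. The mean was 15186 ± 1500 (SD, n = 7) in bulk and 12449 ± 1337 (SD, n = 14) in the pools, and the highest pool, neighboring pool 2, reached 14884. The difference of 2737 genes was larger than the spread between libraries (adjusted p = 0.000894, exact permutation test). Bulk 2 lay below 9 of the 14 pools, and without bulk 2 and 4 the difference was 3511 genes. Detection was also more even: 10423 genes had reads in all 7 bulk libraries, which is 54.7% of those seen in any, against 36.3% in the neighboring and 40.3% in the non-neighboring pools.

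Reads on genes that are not protein-coding made up 35.6% ± 2.24 of gene reads in bulk and 31.4% ± 2.21 in the pools (SD, n = 7 and 14), a difference beyond the spread between libraries (adjusted p = 0.000894, exact permutation test). The 13 protein-coding genes of the mitochondrial genome took 4.91% ± 2.46 and 4.52% ± 1.10 of protein-coding reads (adjusted p = 0.644, same test). The bulk share ranged from 2.22% in bulk 1 to 10.0% in bulk 4, and without bulk 4 the difference changed from 0.395 to -0.460 percentage points. No direction can be given for this share.

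The bulk libraries resembled each other more than pools did. Likeness was taken as Pearson's r of log2(RPM+1) over the 20075 genes with reads in any of the libraries, between 1 library and the mean of the 6 others of its group, and it is a description without a test. It was 0.960, 0.802, 0.960, 0.897, 0.972, 0.971 and 0.972 in bulk libraries 1 to 6 and 8. In the neighboring pools it ranged from 0.743 to 0.875 with a median of 0.800, and in the non-neighboring pools from 0.746 to 0.904 with a median of 0.851. Hence 5 bulk libraries lay above every pool, bulk 4 lay below the highest non-neighboring pool and bulk 2 lay among the pools. The highest r between single bulk libraries was 0.981, between bulk 1 and bulk 5, followed by 0.980 between bulk 6 and bulk 8. Bulk 2 reached at most 0.807 with any other bulk library. In a principal component analysis of 12792 genes, the bulk libraries lay between 17.6 and 72.3 on PC1 (16.8% of the variance), while the pools spread from -180 to 84.9.

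The spread of single genes was smaller in bulk at higher levels. Among the 1990 genes with a mean log2(RPM+1) above 6, the median SD over 7 libraries was 0.530 in bulk, 0.915 in the neighboring and 0.820 in the non-neighboring pools. The SD was smaller in bulk than in the neighboring pools for 1500 of these genes (75.4%) and smaller than in the non-neighboring pools for 1445 (72.6%). The gap was widest at means between 4 and 6. For the 3906 genes with a mean between 4 and 6 the median SD was 0.744 in bulk against 2.19 and 1.82, and 95.2% of them had reads in all 7 bulk libraries against 72.0% and 81.4% of genes in the neighboring and non-neighboring pools. For the 119 genes above 10 it was 0.349 against 0.393 and 0.399. The order was the opposite for the 9970 genes with a mean under 2, at 0.316 in bulk against 0.246 and 0.209, with reads in all 7 libraries for 14.3%, 3.61% and 3.11% of them. Without bulk 2 and bulk 4 the median SD for means between 4 and 6 was 0.313.

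**Figure D2:**
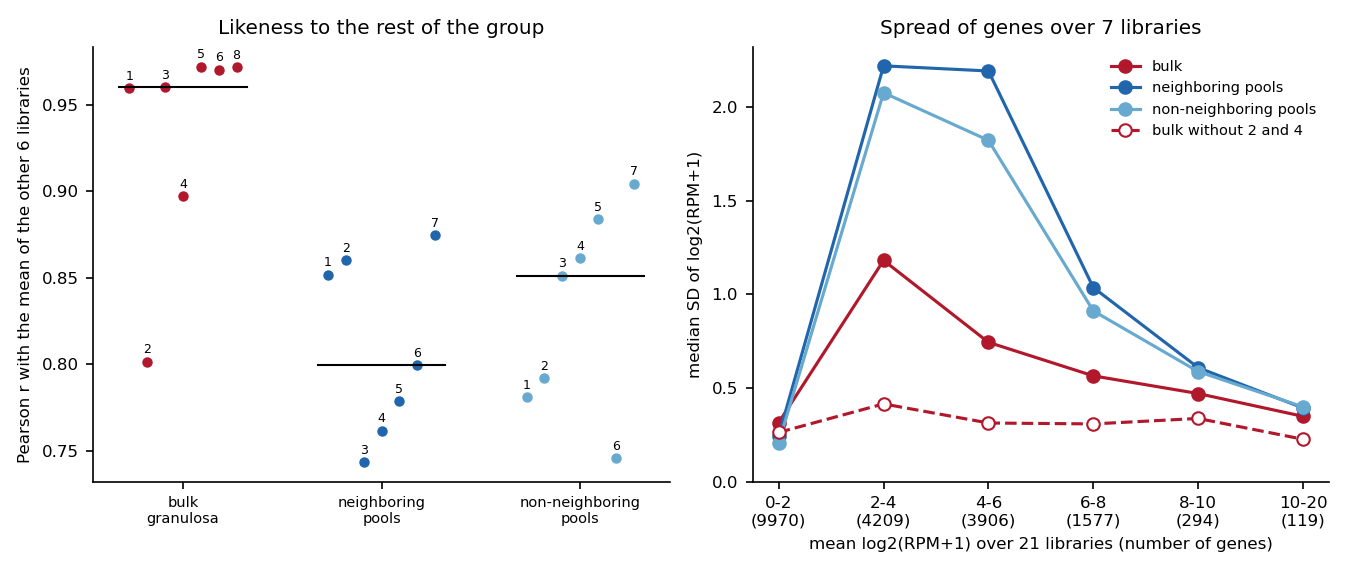
Left, Pearson's r of each library with the mean of the 6 others of its group (points with label numbers, black lines are medians of 7). Right, median SD of log2(RPM+1) over the 7 libraries of a group, by bins of the mean level with the number of genes in parentheses, where the dashed line leaves out bulk 2 and 4. The lines converge at the highest levels, at 0.349, 0.393 and 0.399.

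The granulosa label was then checked against its markers. Fshr (chr17:88984952-89200675, GRCm38) was at 560, 537, 256, 244, 451, 434 and 299 RPM in the bulk libraries and between 86.4 and 794 in the pools. It was thus present in every library. Inha, the inhibin α subunit, was at 11678, 1881, 7465, 4981, 12923, 10741 and 4909 RPM in bulk and between 1706 and 8918 in the pools, with bulk 2 lowest of the bulk libraries. By contrast, Amh was at 0 to 19.0 RPM and Cyp19a1 at 0 to 3.19 RPM in bulk, so that 2 of the 4 marker genes were low in every bulk library. Inhba was at 32.1, 0.207, 0, 0, 57.7, 26.3 and 9.93 RPM in bulk, and thus at or near 0 in bulk 2, 3 and 4. In the pools it was at 2407 and 4305 RPM in both pools numbered 6 and at most 9.70 in the 12 others. Inhbb followed it in those pools, at 1054 and 1051 RPM, and was at most 61.9 in bulk. Fshr and Inha thus had reads in all 21 libraries, which fits the label, but Inha is not among the 4 marker genes, of which only Fshr did. Low markers were not particular to bulk. In non-neighboring pool 2 the 4 markers summed to 86.8 RPM, nearly all of it Fshr. None of the 3 markers that could be tested (Fshr, Amh and Inhba) passed.

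Comparing bulk with pools gene by gene asked whether averaging over a whole follicle section gave another profile than 10 cells. Of 11917 protein-coding genes tested with edgeR's quasi-likelihood test, 12 were higher in bulk (0.101%) and 0 were lower (0%) at an adjusted p under 0.05. At an unadjusted p under 0.05 there were 418 higher and 325 lower. DESeq2 called 50 higher (0.42%) and 40 lower (0.336%), and limma-voom with quality weights called 1240 (10.4%) and 164 (1.38%). The bulk values lay above all pools for 8 tested genes (0.0671%) and below all pools for 1 (0.00839%). The number of calls rested on single libraries. Without bulk 3, 5, 6 or 8, or without non-neighboring pool 5, there were 0 calls in edgeR, with 538 to 782 genes at an unadjusted p under 0.05, and without neighboring pool 2 there were 2 calls. Leaving out bulk 2 gave 22 higher, bulk 4 gave 54 higher and 3 lower, neighboring pools 1 and 3 gave 22 and 33 higher with 1 lower each, and non-neighboring pools 1, 2, 3 and 4 gave 20, 22, 29 and 22 higher with 2, 0, 1 and 1 lower. Leaving out neighboring pool 6 gave 19 calls in all, of which 1 was lower. The calls also took the 14 pools as separate samples. With both pools of a number summed, edgeR called 0 genes higher, 1 lower and 1192 at an unadjusted p under 0.05. In simulated counts the test recovered 0 of 50 genes changed 2-fold, 10 of 50 changed 4-fold, 25 of 50 changed 8-fold and 36 of 50 changed 16-fold.

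Of the 12 genes, 6 encode proteins of the ribosome, the machine that translates mRNA. Rps14 was the only one with bulk values above every pool and a mean of at least 20 RPM. It was at 3806, 3760, 4246, 4064, 4544, 5702 and 5695 RPM in bulk and at 1758 to 3662 in the pools, with a median of 2752 (log2 fold change 0.77, SE 0.16, adjusted p = 0.041). Rpl32 (chr6:115805514-115808743) had the smallest adjusted p, at 0.029. It was at 4245, 3675, 4543, 3137, 4616, 4809 and 5212 RPM in bulk and at 1155 to 3297 in the pools (log2 fold change 1.04, SE 0.17), and bulk 4 overlapped the highest pool. Rps24 (log2 fold change 0.98), Rpl41 (1.29), Rps27 (1.21) and Rps27rt (1.28) had adjusted p-values of 0.037 in edgeR. Rpl41 ranged from 1878 to 7512 RPM in bulk, with bulk 2 at 1975 and bulk 4 at 1878 within the pools' range of 825 to 3619. Rps27 and Rps27rt are near-identical copies, as are Rpl41 and pseudogenes of it, so that reads may be shared among them and their separate values are uncertain.

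**Figure D3:**
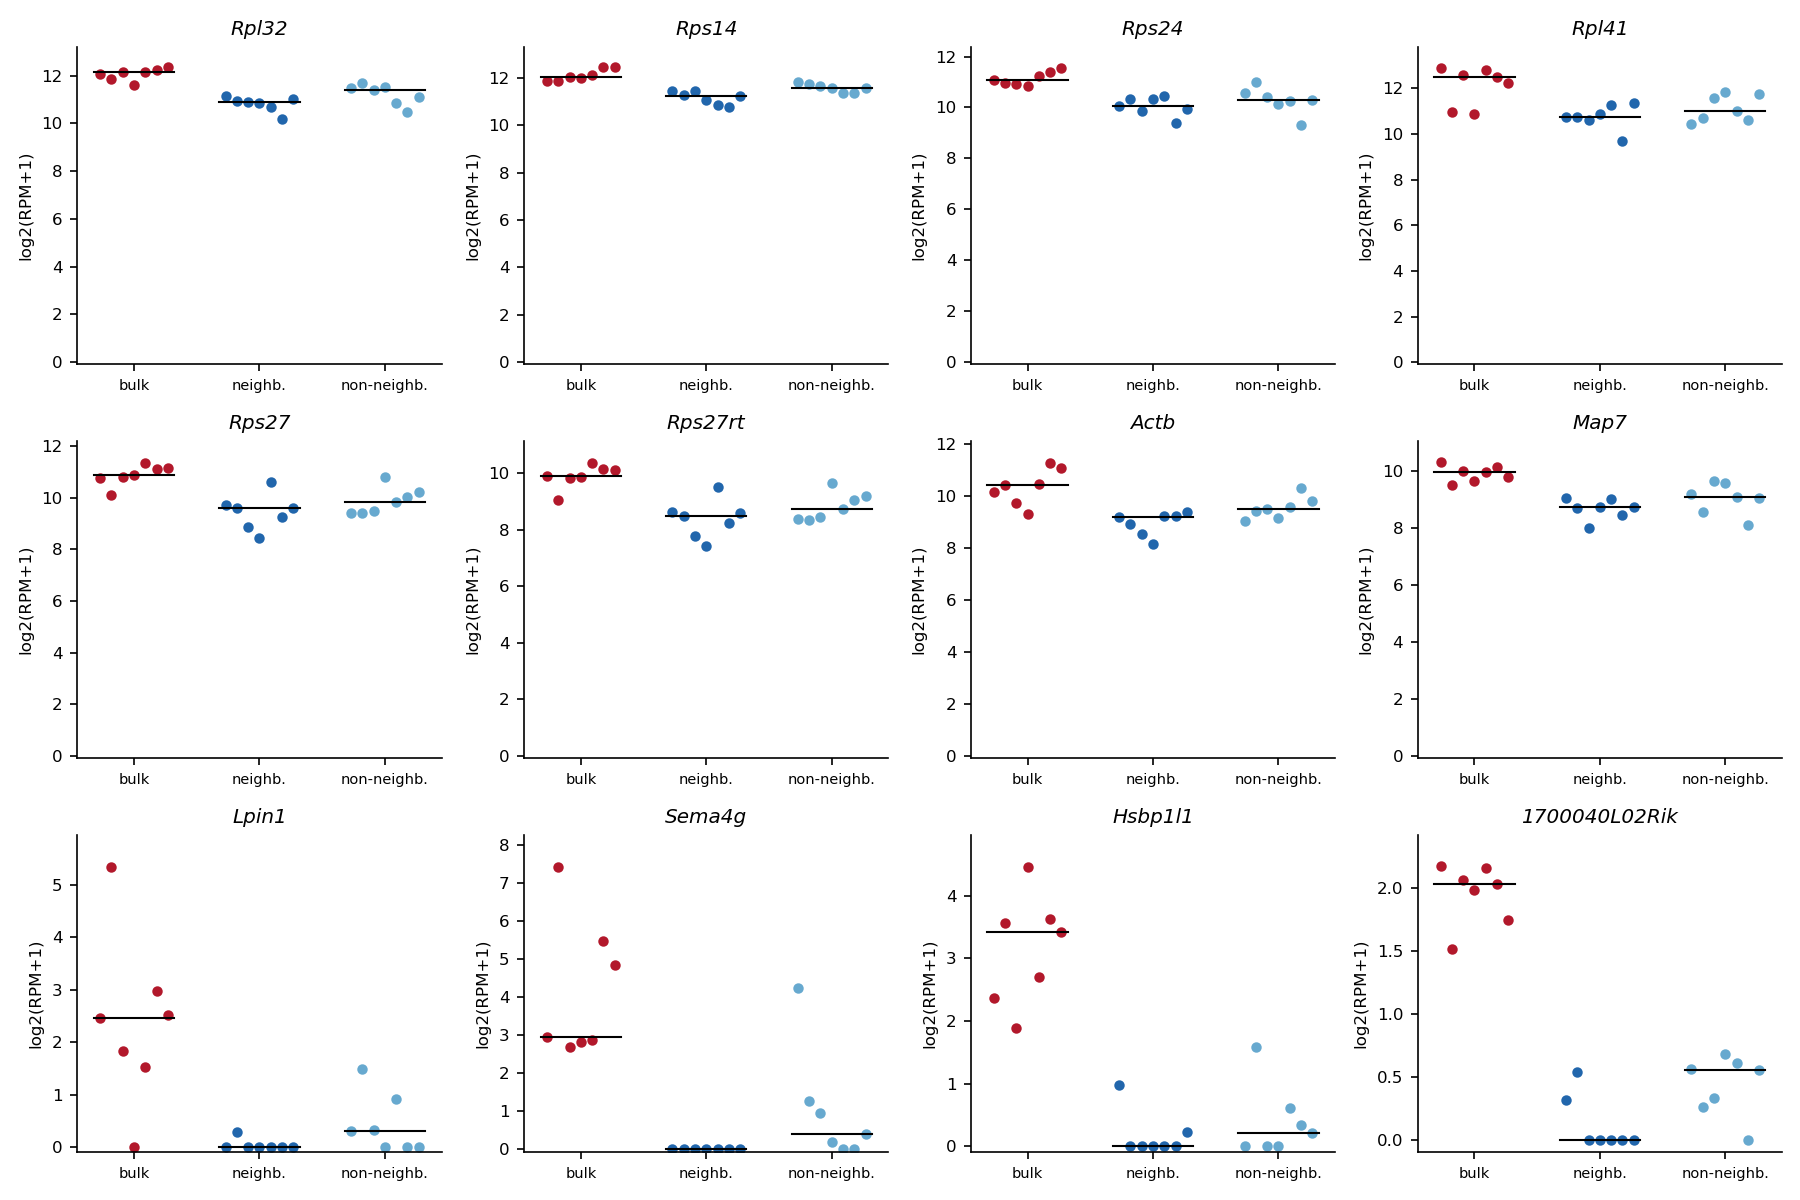
Levels of the 12 genes called higher in bulk by edgeR, as log2(RPM+1), in 7 bulk libraries, 7 neighboring and 7 non-neighboring pools (1 point per library, black lines are medians). The top 2 rows hold genes of high level that were measured in every library, and the lowest row holds 4 genes at or near 0 in most pools.

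Actb and Map7 were also higher. Actb, which encodes cytoplasmic β-actin (chr5:142903115-142907976), was at 1129, 1363, 841, 629, 1404, 2479 and 2183 RPM in bulk and at 280 to 1266 in the pools (log2 fold change 1.25, SE 0.25, adjusted p = 0.037 in edgeR). Bulk 1, 3 and 4 lay within the range of the pools, of which non-neighboring pool 6 was highest. Map7, whose product binds microtubules (chr10:20148920-20281590), was at 725 to 1264 RPM in bulk and at 253 to 801 in the pools, and bulk 2 and 4 overlapped the pools (log2 fold change 1.07, SE 0.21, adjusted p = 0.037 in edgeR).

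The other 4 genes had a median of at most 0.22 RPM in the pools. Sema4g, a semaphorin (chr19:44988743-45003397), was at 6.71, 171, 5.42, 6.05, 6.30, 43.6 and 27.7 RPM in bulk, and its median in the pools was 0, with 17.8 RPM in the highest. Lpin1, which encodes the phosphatidate phosphatase lipin-1 (chr12:16535669-16653903), was at 0 to 39.6 RPM in bulk, highest in bulk 2 and without reads in bulk 4, and at most 1.80 in pools. Hsbp1l1 was at 2.71 to 21.1 RPM in bulk, and 1700040L02Rik at 1.86 to 3.52, both above every pool. The fitted log2 fold changes of these genes (7.27, 5.87, 5.17 and 3.90) depend on the prior count, since many pools held no read of them. Single libraries moved them as well. Without bulk 2 the fitted value was 6.03 for Sema4g and 4.55 for Lpin1, and neither passed in edgeR (adjusted p = 0.057 and 0.053), and without non-neighboring pool 1 it was 8.57 for Sema4g.

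Ribosomal proteins were followed as a group chosen by symbol after these calls were seen. Of 84 tested members, which do not include Rps27rt, 5 rose, and 71 had a positive and 13 a negative log2 fold change, with a median of 0.45 beside -0.09 over all genes tested. DESeq2 called 22 higher and 2 lower, beside 0.42% and 0.336% of all genes, and edgeR called 0.101% of all genes higher. Their summed level was 218642, 172336, 229664, 158377, 244234, 249095 and 271254 RPM in bulk and 120158 to 215827 in the pools, so that bulk 2 and 4 overlapped them. Against the neighboring pools alone 12 members passed edgeR's test, where 22 of all genes were higher (0.185%) and 2 lower (0.0168%). Against the non-neighboring pools alone 0 did, of 0 genes in all (0%). There 27 members had an unadjusted p under 0.05, beside 674 of 11917 genes. The difference between the results for the neighboring and the non-neighboring pools was not tested. The opposite side was led by genes that missed the threshold. Ppia, which encodes cyclophilin A, was at 398 to 1040 RPM in bulk and at 920 to 1982 in the pools (log2 fold change -1.04, adjusted p = 0.053 in edgeR), and the ribosomal protein gene Rpl14 was at 1230 to 2047 against 1827 to 5047 (log2 fold change -0.82, adjusted p = 0.088 in edgeR). Id3, a target of BMP signaling, was at 52.4 to 162 RPM in bulk against 135 to 1036 (log2 fold change -1.76, adjusted p = 0.10 in edgeR).

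Replication-dependent histones, whose main transcripts end without a poly(A) tail, formed a second group chosen by symbol after values were seen. None of 45 tested members passed in edgeR, and 16 had an unadjusted p under 0.05, beside 743 of 11917 genes over all. DESeq2 called 7 lower, where 0.336% of all genes were. The median log2 fold change was -2.30, with 43 members negative. The summed level was 915, 19.9, 1172, 219, 799, 282 and 100 RPM in bulk, and 179 to 9675 RPM in the pools. The pools numbered 1 and 2 lay within the bulk range, and all pools numbered 3 to 7 lay above every bulk library. Cell cycle genes lay lower in bulk by their fold change as well. None of 29 tested members passed in edgeR, although 25 were lower in bulk by their log2 fold change (median -0.88), 6 had an unadjusted p under 0.05, and DESeq2 called 0. Among them Pcna, the DNA polymerase clamp, was at 28.9, 7.04, 71.9, 29.4, 27.9, 12.9 and 13.6 RPM in bulk and at 8.80 to 247 in the pools. Without the 4 pools richest in theca and stroma genes, 2 cell cycle genes and 11 histone genes were called lower, of 34 lower calls in all (0.268%). In that fit 4 ribosomal protein genes were called higher and 1 lower, where 0.813% of all genes were higher. Of the pools left out, neighboring pool 1 and non-neighboring pools 1 and 2 had the lowest histone sums of all pools (272, 179 and 321 RPM). Their cell cycle sums were also the lowest (1642, 849 and 969 RPM), while non-neighboring pool 6 held 8983 and 3234 RPM. The choice thus favored lower calls in both lists, and these calls are no test of them.

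No gene of the lists for other cell types passed the test, and the summed levels of theca and stroma genes varied more among the pools than among bulk libraries. For theca and steroid-making cells (10 tested, 0 called, 0 with an unadjusted p under 0.05 in edgeR, 0 called by DESeq2) the median log2 fold change was -1.13. For stroma and smooth muscle (8 tested, with 0, 0 and 0 in the same order) it was -2.66. Without the 4 pools that were richest in these genes (neighboring pool 1 and non-neighboring pools 1, 2 and 6) the medians were 0.74 and 2.07. These pools were picked by these same genes, so that a rise in both medians was set by the choice and is no test of the lists. The summed stroma level was at 30.5, 19.3, 224, 143, 26, 46.3 and 323 RPM in bulk, a 16.8-fold range, and at 0.953 to 6714 RPM in the pools.

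**Figure D4:**
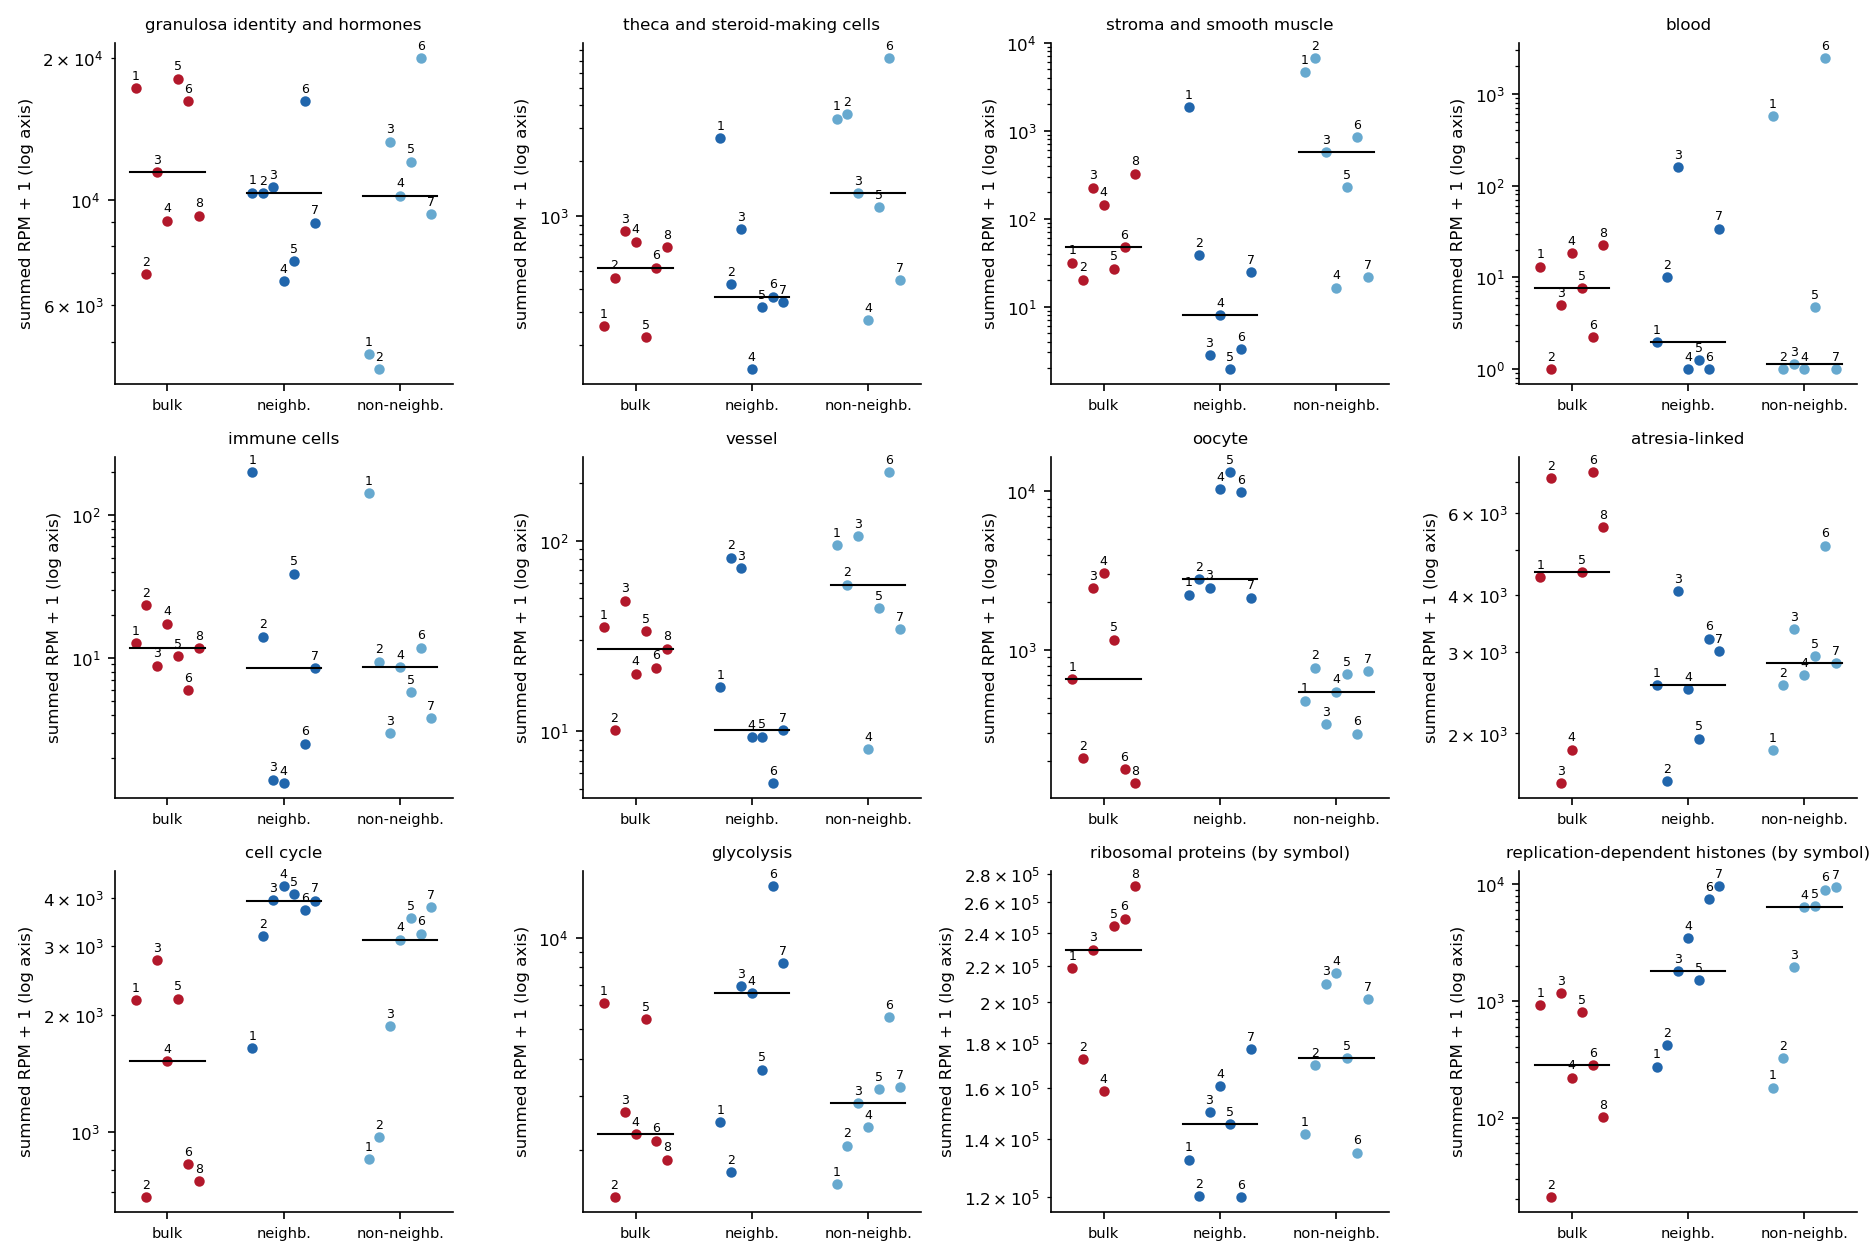
Summed level of each gene list (RPM + 1, log axis) in each library, with the label number beside each point and medians of 7 as black lines. Theca, stroma, blood and immune genes spread further among the pools than among the bulk libraries, and the oocyte genes of bulk 3 and 4 reach the neighboring pools while those of bulk 2, 6 and 8 lie below every pool.

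Within the 7 bulk libraries, theca and stroma genes were highest in bulk 3, 4 and 8. Their summed theca level was 830, 726 and 680 RPM, against 218 to 523 in the other bulk libraries. Cyp17a1, the 17α-hydroxylase of theca cells, was at 0, 0, 119, 13.7, 0.945, 0.671 and 84.9 RPM in libraries 1 to 6 and 8. Cyp11a1, which cleaves the side chain of cholesterol, was at 1.60, 0, 102.8, 12.98, 2.21, 2.15 and 155 RPM. Col1a2, a chain of type I collagen, was at 0.320, 0, 94.1, 87.6, 1.10, 1.75 and 94.6 RPM. All 3 genes thus had their highest values in the same 3 libraries and were at most 2.21 RPM in the 4 others. Acta2, the smooth muscle actin, was at 100.9 RPM in bulk 8 and at most 24.4 in the other bulk libraries, and at 2864 RPM in non-neighboring pool 2. Hsd3b1, a steroid dehydrogenase, went another way, at 7.99, 180, 275, 211, 9.77, 237 and 175 RPM, low in bulk 1 and 5 alone.

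Blood, immune and vessel genes were low in bulk throughout. The 6 blood genes summed to 12.0, 0, 3.99, 17.3, 6.62, 1.21 and 21.4 RPM, whereas non-neighboring pools 1 and 6 held 574 and 2465 RPM. The high sums lay in few pools, since the median was 6.62 RPM in bulk and 0.605 RPM in the pools. Of the globins, Hbb-bs was at 13.4 RPM in bulk 4 and 7.58 in bulk 8 and at most 0.159 in the 5 others. In bulk 1 and 5 the blood genes consisted of Alas2, at 12.0 and 6.46 RPM, with the 4 globins at 0. The immune list summed to 4.97 to 22.4 RPM in bulk and reached 197 and 140 RPM in the pools numbered 1, with medians of 10.7 in bulk and 7.53 in the pools. The leukocyte marker Ptprc stayed at or below 0.523 RPM and Lyz2 was at 0 in all bulk libraries. The 12 vessel genes summed to 9.11 to 47.3 RPM in bulk and 4.35 to 228 in pools, and Pecam1 was at most 2.95 RPM in bulk. Median vessel sums were 26.1 RPM in bulk, 9.09 in the neighboring and 57.8 in the non-neighboring pools. Blood genes had no tested member, the immune list had 1 (Csf1r) and the vessel list 3, of which 0 passed in edgeR or DESeq2 and 0 had an unadjusted p under 0.05.

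The oocyte list ranked the bulk libraries in another order. Its 28 genes, among them those of the zona pellucida and the growth factors Gdf9 and Bmp15, summed to 657, 207, 2449, 3040, 1162, 177 and 145 RPM in bulk. Neighboring pools held 2144 to 13211 RPM and non-neighboring pools 298 to 777. Sections of oocytes, measured by the same assay, held 64481 to 106815 RPM (n = 16). Bulk 3 and 4 thus reached the range of the neighboring pools, bulk 1 lay in that of the non-neighboring pools, bulk 5 lay between both, and bulk 2, 6 and 8 lay below all pools. Gdf9, which the oocyte secretes to granulosa cells, followed this order at 28.1, 10.4, 268, 258, 79.2, 1.88 and 1.83 RPM. Zp3, a protein of the zona, was at 20.9, 3.11, 124, 239, 46.5, 1.48 and 0.523 RPM. An exception was Dazl, a germ-cell RNA-binding protein, which was highest in bulk 2 at 54.3 RPM and at most 9.25 in the others. Against all pools the median log2 fold change of the 26 tested members was -0.43. There were 0 calls in edgeR and in DESeq2 and 1 unadjusted p under 0.05, beside 743 over all 11917 genes. Without the 4 theca- and stroma-rich pools, 7 members had an unadjusted p under 0.05, beside 1479 of 12676 genes. The median was then 0.69, with 19 of 26 positive, so that its sign depended on these pools. Against neighboring pools alone it was -2.59 with 25 of 26 negative and 16 unadjusted p-values under 0.05, and against non-neighboring pools alone it was 2.91 with 24 of 26 positive and 16 under 0.05, again with 0 calls each in edgeR. Over all 11917 genes, 1069 and 674 had an unadjusted p under 0.05 in these fits, which share the 7 bulk libraries. The part of oocyte material in these values was not tested.

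The genes that varied most among bulk libraries were in none of the lists for other cell types. Taken by the SD of log2(RPM+1) among genes with a mean of at least 6 in bulk, the first 10 were Lrrtm3, Slc38a5, Mpped2, Serpina3a, Kctd14, Dhrs3, Pde7b, Ghr, Lsm4 and Itih5, with SDs from 3.71 to 2.76. These values chose the genes and are given without a test. Lrrtm3, which encodes a synaptic adhesion protein, was at 462, 697, 6.38, 0.295, 456, 670 and 462 RPM. Mpped2 was at 447, 285, 24.6, 0.148, 264, 408 and 172 RPM, and Pde7b, a cAMP phosphodiesterase, at 581, 266, 55, 1.77, 417, 795 and 542 RPM. All 3 were low in bulk 3 and 4. Kctd14 had the opposite order, at 118, 2.90, 590, 1846, 82.5, 26.99 and 33.4 RPM, with bulk 3 and 4 highest.

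Ghr, the growth hormone receptor, was at 41.7, 870, 18.8, 2.07, 33.2, 482 and 286 RPM, and Itih5 at 222, 1356, 32.7, 5.75, 277, 941 and 566 RPM. Both were highest in bulk 2, 6 and 8 and lowest in bulk 4, and both exceeded the highest pool (119 and 373 RPM) in these 3 libraries. Slc38a5, an amino acid transporter, was at 607, 0.414, 102.03, 1.77, 505, 175 and 263 RPM. Serpina3a and Dhrs3 had no reads in bulk 2 and were at 34.5 to 555 and 112.4 to 275 RPM in the other bulk libraries, while Lsm4, of the U6 snRNP, was at 0.207 RPM in bulk 2 and 123 to 285 RPM in the others.

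**Figure D5:**
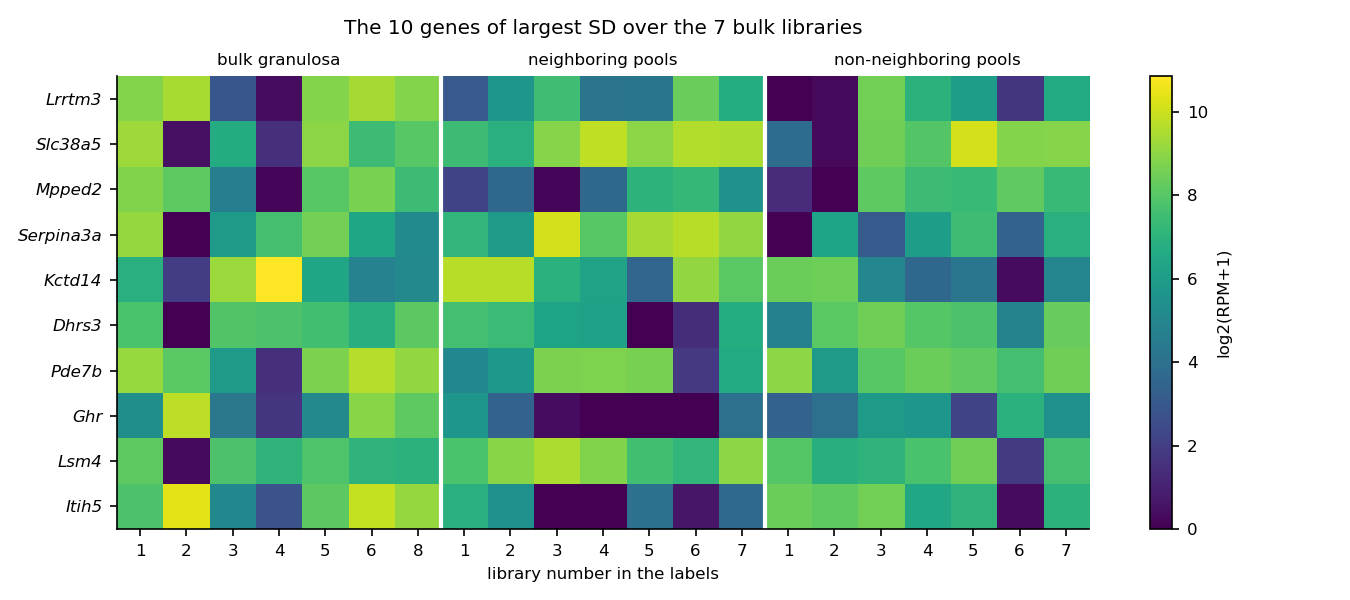
Level of the 10 genes with the largest SD over the 7 bulk libraries, as log2(RPM+1) by color, in each bulk library and pool by its label number. Lrrtm3, Mpped2 and Pde7b are dark in bulk 3 and 4, and Slc38a5, Serpina3a, Dhrs3 and Lsm4 are dark in bulk 2.

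Genes that set 1 bulk library apart were most extreme in bulk 2 and bulk 4. Among bulk libraries these also had the most ERCC reads (12.4 and 3.09 per 100 protein-coding reads) and the fewest detectable genes (12190 and 14313). The part of low input in these values, and in the genes at or near 0 in bulk 2, was not tested. In bulk 2, Cd55, which encodes a complement regulator, was at 154 RPM against at most 0.784 in the other bulk libraries and 2.38 in any pool. 4732471J01Rik was at 52.8 RPM there, against at most 0.261 in the other bulk libraries. In bulk 4, the phosphate transporter Slc34a3 was at 62.99 RPM against 0.134 in the others and had no read in 14 pools. Khdc1c was at 41.6 and Ccdc60 at 27.4 RPM there, but Khdc1c reached 147 RPM in neighboring pool 5. The lead was smaller elsewhere. In bulk 3, Eppin was at 43.8, Cited1 at 68.1 and Ccdc68 at 41.8 RPM, each at most 15.9 in the other bulk libraries. Bulk 1 was led by Apol6, Abcc3 and Clec2l and bulk 5 by Kazald1, Hyou1 and Inhba, with an excess of 0.824 to 1.29 on the log2 scale over the next library. Bulk 6 was led by Tox, Gnao1 and Aph1c and bulk 8 by Acta2, Cdkn1a and Pcp4l1, at 20.5 to 100.9 RPM.

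Genes of granulosa functions differed among bulk libraries too. Of the 22 genes of granulosa identity and hormones 19 were tested against the pools and 0 passed in edgeR or DESeq2. An unadjusted p under 0.05 was found for 3, beside 743 of 11917 genes. The median log2 fold change was 0.14, and -0.03 without bulk 2 and 4. Foxo1, a transcription factor that FSH signaling restrains, was at 3652, 3630, 565, 281, 3511, 5023 and 3796 RPM, and bulk 3 and 4 were low. Amhr2, the receptor of anti-Müllerian hormone, was at 276, 135, 641, 797, 288, 142 and 217 RPM, and bulk 3 and 4 were high. Igfbp5, which binds insulin-like growth factors, was at 317 and 959 RPM in bulk 3 and 4 and at most 2.87 in the 5 others. Col18a1, which encodes a basement membrane collagen, was at 164 and 479 RPM in these libraries and at most 6.01 in the others. Kitl, the ligand through which granulosa cells act on oocytes, was at 57.4 RPM in bulk 4 and 6.54 in bulk 3, and at most 0.537 in the others. Glycolysis genes summed to 6093 and 5391 RPM in bulk 1 and 5 and to 1394 to 2662 in the other bulk libraries. Cell cycle genes summed to 2179, 680, 2763, 1522, 2201, 827 and 747 RPM, so that bulk 2, 6 and 8, which were highest in Ghr and Itih5, were lowest in these.

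The list made for atresia, the degeneration of follicles, holds Itih5, Ghr, Foxo1 and genes of cell death such as Bax and Bbc3. It summed to 4367, 7144, 1562, 1842, 4464, 7369 and 5605 RPM in bulk and to 1575 to 5101 in the pools. Foxo1, at the levels given above, made up most of this sum in bulk 1, 5, 6 and 8. In bulk 2, Ghr and Itih5 added 870 and 1356 RPM to that of Foxo1. The sum is thus no measure of the cell death genes alone. Of 9 tested members 0 passed in edgeR and 3 had an unadjusted p under 0.05, beside 743 of 11917 genes. DESeq2 called 1 higher, where 0.42% of all genes were. Itih5 had a log2 fold change of 2.95 (SE 0.94) and Ghr of 3.68 (SE 1.01). The median of the 9 was 0.92, with 6 positive and 3 negative, and Itih5 and Ghr are also among the genes chosen above by their spread in bulk.

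The other lists held no called gene in edgeR with all libraries kept. Medians of the log2 fold change were -0.52 for glycolysis (18 tested, 17 negative), -0.64 for cholesterol synthesis (19), -0.62 for the hypoxia response (10), -0.23 for follicle matrix (19), 0.12 for TGF-beta family signals (21), -0.53 for Notch and Hedgehog signals (12) and -0.40 for the insulin-like growth factor axis (10), beside -0.09 over all genes. Medians were -0.35 for the nuclear respiratory chain (42 tested, 35 negative), -0.19 for mitochondrially encoded genes (13), -0.19 for immediate early and stress genes (14), -0.42 for cumulus expansion and ovulation (3), 0.04 for luteal cells (5) and -1.07 for the surface epithelium (2). Unadjusted p-values under 0.05 numbered 1, 1, 0, 0, 2, 0, 0, 7, 3, 1, 0, 0 and 0 in the order given, beside 743 of 11917 genes over all. The direction of several of these medians depended on the libraries kept. Without the 4 theca- and stroma-rich pools they were 1.47 for follicle matrix, 1.24 for the insulin-like growth factor axis, 0.22 for cumulus expansion and 1.46 for luteal cells. In DESeq2 the sign changed for the insulin-like growth factor axis (0.33) and luteal cells (-0.06). Against neighboring pools alone follicle matrix was at 0.33. Against non-neighboring pools alone the sign changed for glycolysis (0.02), TGF-beta family signals (-0.06), Notch and Hedgehog signals (0.10), cumulus expansion (0.07), luteal cells (-2.31) and the surface epithelium (0.04). Without bulk 2 and 4 TGF-beta family signals were at -0.03. In that fit edgeR called 3 of 13 mitochondrially encoded genes lower, of 6 lower calls among 12442 genes. Their median was -0.94, and 7 had an unadjusted p under 0.05, beside 749 over all genes. Bulk 4 had the highest share of these reads, so that leaving it out favored lower calls. DESeq2 called 2 genes of the nuclear respiratory chain and Id3, of the TGF-beta family list, lower (0.336% of all genes were), and called 0 in the others. The genes of cumulus expansion, which follow the ovulatory surge, were close to 0 in bulk except Vcan, at 89.9, 132 and 195 RPM in bulk 2, 3 and 4 and at most 15.4 in the others, and Runx1, at 12.4 to 51.6 RPM.

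The lists that the study set up on single granulosa cells were read in bulk last. Genes listed as higher in neighboring cells (35) summed to 1695, 1344, 2289, 3399, 1848, 816 and 780 RPM in bulk, 3224 to 15079 RPM in the neighboring and 756 to 1523 RPM in the non-neighboring pools. Bulk 4 was the only bulk library within the range of the neighboring pools. Genes listed as higher in non-neighboring cells summed to 7968 to 13527 RPM in bulk and 6497 to 15537 RPM in the pools, and these ranges overlapped. In edgeR 0 of 35 and 0 of 97 tested members passed, and 0 and 5 had an unadjusted p under 0.05 (743 of 11917 over all genes). DESeq2 called 0 and 1 higher, where 0.42% of all genes were. The median log2 fold changes were -0.51 and 0.09. Against neighboring pools alone the first was -2.46, with 33 of 35 negative and 17 unadjusted p-values under 0.05 (1069 over all genes). Against non-neighboring pools alone it was 0.74, with 27 of 35 positive and 9 under 0.05 (674 over all genes). EdgeR called 0 members in either fit. The second was -0.08 without bulk 2 and 4. The oocyte sections held a median of 61382 RPM of the neighboring list.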

How the data were processed

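RNA 3′ ends were measured by DRaqL-SC3-seq in 7 bulk granulosa libraries and 14 pools of about 10 cells, and groups were taken from the sample labels. The authors deposited read counts per gene without normalization. Per the labels and the submitters' processing notes, reads were trimmed with fastp 0.20.0 and cutadapt 1.16, aligned with HISAT2 2.1.0 to GRCm38 and counted with HTSeq 0.10.0 within 10 kb of annotated 3′ ends. Reads carried no molecular identifiers and the cDNA was amplified, so that depth covers counting error only. All columns of the table were matched to a label.

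Of 45905 genes, 22060 protein-coding genes were used. RPM values are counts over a library's protein-coding total, and levels were taken as log2(RPM+1). Genes were tested with edgeR 4.0.16 (quasi-likelihood test, TMM scaling, filterByExpr, bulk minus the mean of both pool groups, Benjamini-Hochberg threshold of 0.05) in R 4.3.3, with DESeq2 1.42.0 and limma 3.58.1 as alternatives, and fold changes are of this fit. For measures with 1 value per library, an exact permutation test (two-sided, 116280 splits, adjusted over 4 measures) was run in python 3.11.15 with scipy 1.17.1, numpy 2.4.6 and pandas 2.3.3. The edgeR test was tested on simulated data with 200 changed genes among 11593. Random steps used the seed 20230918.

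The libraries compared, the gene lists and the tests were chosen with earlier results of these data known. The lists of ribosomal proteins and of replication-dependent histones, and the genes Ppia, Rpl14 and Id3, were added after values were seen. The lists of genes higher in neighboring and in non-neighboring cells are those the study chose on single cells. Genes were named if they were in a list, among the 12 per direction with the largest change that were called, had at least 20 RPM and did not overlap between groups (which 1 gene met), among the 10 most variable in bulk, or among 3 that set each bulk library apart, of which 1 is not reported here. The other called genes were named after their values were seen, since there were 12 in all. Alternatives were other scalings, filters, tools, pool groups, pseudocounts, thinning to 3811945 reads, the replicate number as a block and leaving out each library. Leaving out bulk 2 and 4, and leaving out the 4 pools richest in theca and stroma genes, were added after seeing the data.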

Additional observations from a re-analysis of the deposited data

Results flagged for a closer look

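Among 60 groups of 7 libraries tested for a sample far from the others by Dixon's criterion at the 95% level, 7 gave a flag, and chance flags about 1 in 20. In the bulk group, bulk 4 stood apart in the share of mitochondrially encoded reads (10.039%) and in the summed level of surface epithelium genes (23.01 RPM). Bulk 2 stood apart on PC2 (-84.1), in the summed level of Notch and Hedgehog genes (88.8 RPM) and in Rps27rt (528 RPM). Among the non-neighboring pools, pool 6 stood apart in detectable genes (10789) and on PC1 (-98.9).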

How the results depend on the processing

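Against 12 called genes, 0 of them lower in bulk, edgeR called 31 (4 lower) without TMM, 463 (11) without a filter on low counts, 136 (16) over all genes of the table, 34 (1) after thinning to 1 depth, 24 (2) against neighboring pools, 0 against non-neighboring pools (674 at an unadjusted p under 0.05) and 1 (1) with both pools of a number summed. DESeq2 called 90 (40) and limma-voom with quality weights 1404 (164). Leaving out 1 library gave 0 to 57 calls with 0 to 3 lower. Without bulk 2 and 4 there were 40 (6), and without the 4 pools richest in theca and stroma genes 137 (34). None of the 12 genes reversed in the 31 to 33 settings run for each, and each was past the threshold no longer in 8 (Rpl32) to 15 (Rps14, Hsbp1l1) of them. The causes were not tested.

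Deviations of same-numbered bulk libraries and pools had r from -0.353 to 0.107 with neighboring pools and from -0.294 to 0.305 with non-neighboring pools. They were highest with their own number for 1 and 0 of 6 numbers. Whether same-numbered libraries share a mouse or a follicle cannot be told from these values. Neighboring and non-neighboring pools of a number had r from 0.0665 to 0.352, over 0.1 for 4 of 7 and highest with their own number for 3. With the replicate block edgeR called 0 higher and 0 lower (1031 genes at an unadjusted p under 0.05). Over 6 shared numbers, where an exact sign-flip test cannot go below 0.03125, the block gave a difference of 2783 genes (p = 0.0625), -1.30 in log10 ERCC share (p = 0.0625), 0.225 percentage points in mitochondrially encoded reads (p = 0.844) and 3.93 in reads off protein-coding genes (p = 0.03125).

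Leaving out 1 library, the differences ranged from 2520 to 3237 genes, from -1.69 to -1.24 in log10 ERCC share, from -0.460 to 0.844 points in mitochondrially encoded reads and from 3.61 to 4.61 in reads off protein-coding genes. The mitochondrially encoded share was reversed without bulk 4 (-0.460) and without bulk 2 and 4 (-0.699). A pseudocount of 10 lowered the median SD to 0.834 in neighboring and 0.761 in non-neighboring pools. After thinning to 1 depth the difference in detectable genes was 2639.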
